A study of Mus musculus with 20 samples.

Results

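Ralgapa1, Ino80d, Erg, Arfip2, Dhx32 and B3galt5 are 6 mouse genes that each had 1 probe set with more signal in RNA pulled down with iron regulatory protein 2 (IRP2) than in RNA from a control reaction, while the other tested probe sets of the same gene stayed near a ratio of 1. They were taken by gene symbol, with all their probe sets, which gave 21 of the 45101 probe sets on the array. Of these 21, 13 were bright enough to be tested, among 30153 tested probe sets that include 14872 named genes. The genes were selected on the ratio of IRP2 to control over the 10 pairs of arrays, so every such ratio below is a description and supports nothing.

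IRP2 is a cytoplasmic protein that binds iron-responsive elements (IREs), short RNA stem-loops with a conserved loop. Bound near the start of an mRNA it blocks translation, as for the ferritins, and bound in the trailing untranslated region it protects the mRNA from decay, as for the transferrin receptor. A probe set is a group of short oligonucleotides against a stretch of a transcript, so probe sets of a gene can read different ends or splice forms of its RNA.

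The series measured 20 Affymetrix arrays, 2 for each of 10 groups made by 5 tissues of C57BL6/J mice and 2 reactions. Both reactions took 50 µg of total RNA and a mouse monoclonal antibody against the His tag; the IRP2 reaction added recombinant His-tagged IRP2 made in E. coli, and the control reaction left it out. RNA was pooled from 4 mice for duodenum, liver and spleen, which had been on feed with less than 10 mg of iron per kg for the 21 days after weaning, and from 6 mice for bone marrow and brain, aged 8 to 10 weeks and kept on iron-normal feed. Feed and age cannot be told apart from tissue where the former 3 tissues are compared with the latter 2. About 120 ng of recovered RNA was amplified for each array, and the sources used here do not say whether the replicates drew on separate pools, so errors measure the spread between these arrays, which may be technical.

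All levels are log2 values as deposited, and a ratio is the log2 value of an IRP2 array minus that of the control array with the same tissue and replicate number. Where an array is left out, the ratio of its tissue is the difference between the reaction means of the arrays that remain, which are then not matched by number. Array medians were 5.39 to 5.55 on the arrays of spleen, bone marrow and brain replicate 2 and 5.65 to 5.71 on the other 10. Bone marrow control replicate 1 stood apart: it correlated by rank with the spleen arrays at 0.908, where the 3 further arrays of that tissue gave 0.824 to 0.825. Over probe sets, the SD of the log2 ratio was 0.568 in its pair and 0.214 to 0.312 in the other 9. In the control reactions, markers were highest in their own tissue for 5 of 5 duodenal epithelium, 6 of 6 liver and 6 of 6 bone marrow myeloid genes, and for 3 of 5 spleen lymphocyte genes. Of 5 brain genes only Snap25 and Syt1 were highest in brain, and Gfap, Mbp and Neurod2 were not. The 4 pancreas acinar markers were highest in duodenum, with a median of 12.07 there and 6.08 to 8.89 in the other tissues.

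In the mean over the 5 tissues, 6 of the 13 tested probe sets were called higher in the IRP2 reaction by limma at an adjusted p under 0.05, 1 for each gene, beside 0.365% of all tested probe sets. The ratio was above 0 in all 10 pairs for 5 of the 13, beside 0.869%. Fitted with tissue and replicate number as a block, the call fell on 6 of the 13 again, beside 1.07%. Because this contrast chose the genes, nothing is read from these shares. The mean ratios of the 6 were, with the standard error over 20 arrays, 1.56 ± 0.11 for Ralgapa1 (2.94-fold), 1.44 ± 0.18 for Erg (2.71-fold), 1.41 ± 0.10 for Arfip2 (2.65-fold), 1.27 ± 0.16 for Ino80d (2.41-fold), 0.83 ± 0.17 for Dhx32 (1.77-fold) and 0.51 ± 0.10 for B3galt5 (1.42-fold). The other 7 tested probe sets of these genes lay between 0.01 and 0.24, and none was called with or without the block. The lowest called value was thus 0.51 for B3galt5, and the highest uncalled tested one 0.24 ± 0.10 for Ralgapa1. Every SE given with a ratio is from a fit without the block, which does not use the pairs. With the block the SEs of the 6 means were lower, from 0.07 for Arfip2 to 0.12 for Dhx32. In single tissues the SE was then 0.17 and not 0.36 for Ino80d, and 0.24 and not 0.41 for Erg.

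**Figure D1:**
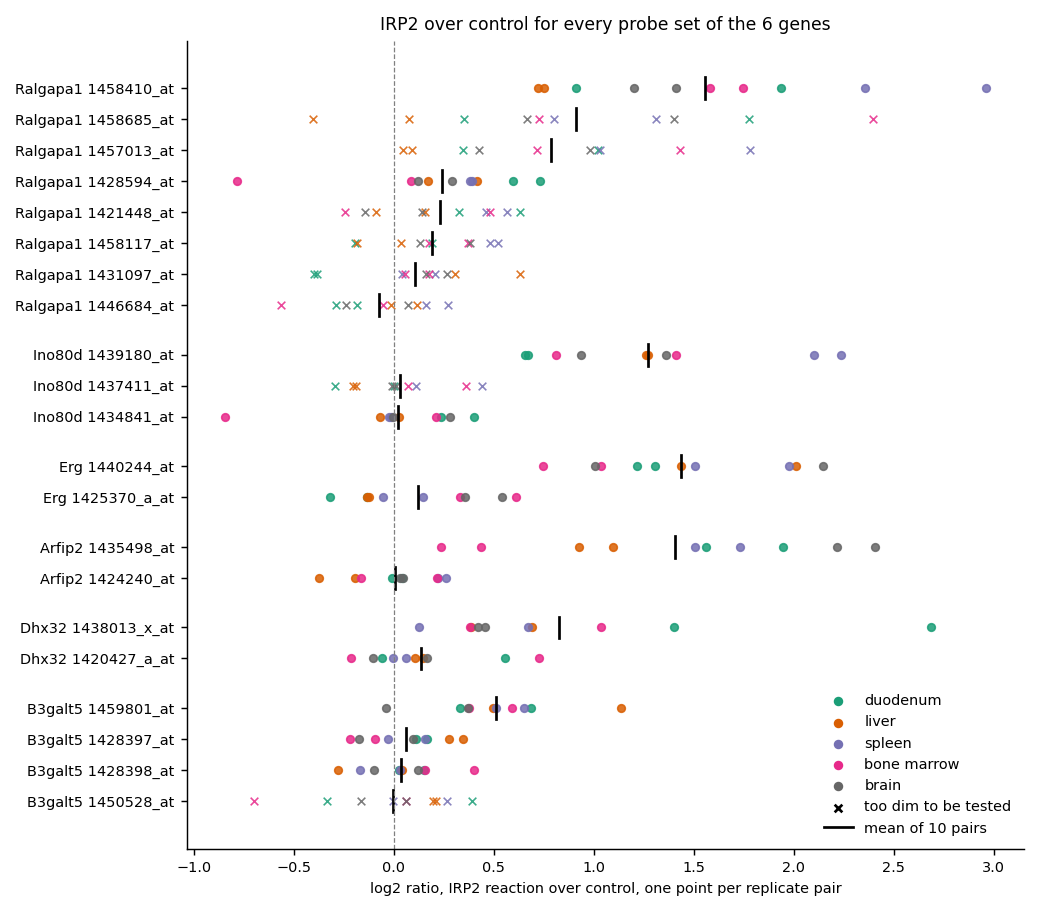
Log2 ratio of the IRP2 reaction over the control (horizontal axis) for all 21 probe sets of the 6 genes, 1 row each, with 1 point per replicate pair coloured by tissue, crosses for the 8 probe sets too dim to be tested, and a bar at the mean of 10 pairs. In each gene the called probe set has the highest mean, from 0.51 to 1.56, the other 7 tested ones have means of 0.01 to 0.24, and 2 untested probe sets of Ralgapa1 have means of 0.79 and 0.91.

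To be tested, a probe set had to reach the array median on 2 or more of the 20 arrays. B3galt5 1459801_at passed on 2 arrays, both of them IRP2 reactions, so it had to look higher there to be tested at all. Ralgapa1 1458410_at passed on 10 IRP2 arrays and 1 control array, and Erg 1440244_at on 7 and 2. The called probe sets of Arfip2 and Dhx32 reached the median on all 20 arrays, and that of Ino80d on 18. The 8 probe sets that did not pass were 6 of Ralgapa1, 1 of Ino80d and 1 of B3galt5.

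Ralgapa1 encodes the catalytic subunit of the Ral GTPase activating complex, which switches off the small GTPases RalA and RalB. In spleen its probe set 1458410_at read 7.93 and 7.55 in the IRP2 reactions against 4.97 and 5.2 in the controls. In bone marrow it read 7.15 and 7.23 against 5.57 and 5.49. Duodenum gave 6.11 and 6.93 against 5.2 and 4.99. Both IRP2 arrays were above both controls in these tissues, and the IRP2 arrays of spleen were the highest of the 20. Brain gave 6.33 and 6.27 against 5.13 and 4.86, and liver 5.92 and 5.90 against 5.17 on both. The groups did not overlap there either, and liver had the smallest separation. The tissue ratios, each ± 0.24 (SE), were 2.66 in spleen, 1.66 in bone marrow, 1.42 in duodenum, 1.31 in brain and 0.74 in liver. The pairs of spleen lay above all others and those of liver below, while the pairs of bone marrow, duodenum and brain overlapped in that order.

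The label of 1 enriched probe set does not hold fully for Ralgapa1. The second tested probe set, 1428594_at, had a ratio of 0.24 ± 0.10, with tissue means from -0.35 in bone marrow to 0.66 in duodenum. The bone marrow pairs were -0.78 and 0.09. Without control replicate 1, both IRP2 arrays set against control replicate 2 gave -0.02. Of the 6 untested ones, 1458685_at had a mean ratio of 0.91 ± 0.19, higher in 9 of 10 pairs, and 1457013_at one of 0.79 ± 0.14, higher in 10 of 10. The remaining 4 lay between -0.07 and 0.23. Fitted without the filter, 6 of the 21 probe sets were called, beside 0.235% of all probe sets, and 1457013_at was among them while Dhx32 1438013_x_at was not.

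Both untested probe sets were dim. In spleen 1457013_at read 4.15 and 3.73 with IRP2 against 2.37 and 2.69 without. In bone marrow 1458685_at read 5.10 and 3.81 against 2.71 and 3.08. In liver the ratios of the pairs were 0.09 and 0.04 for 1457013_at and -0.41 and 0.07 for 1458685_at. Liver was the lowest tissue for all 3, but the highest was spleen for 1458410_at and 1457013_at and bone marrow for 1458685_at. Control levels of these dim probe sets averaged 2.58 and 2.52, near the lowest value in the series, 1.77.

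**Figure D2:**
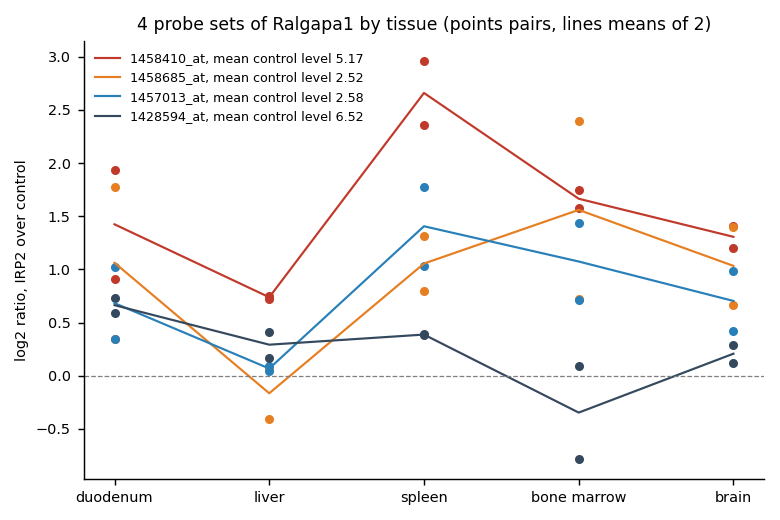
Log2 ratio of the IRP2 reaction over the control (vertical axis) by tissue for 4 probe sets of Ralgapa1, with points for replicate pairs and lines through the means of 2 pairs. The lines of 1458410_at, 1457013_at and 1458685_at are lowest in liver. The line of 1428594_at is lowest in bone marrow at -0.35, or -0.02 with both IRP2 arrays set against control replicate 2.

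Ino80d encodes a subunit of the INO80 complex, which remodels nucleosomes with energy from ATP. In spleen 1439180_at read 7.70 and 7.69 in the IRP2 reactions against 5.46 and 5.59 in the controls. Liver gave 7.37 and 7.66 against 6.11 and 6.39, and duodenum 7.14 and 7.39 against 6.47 and 6.74. The spleen controls were low while its IRP2 arrays were the highest of the 20, and duodenum had high controls. Bone marrow gave 7.25 and 6.26 against 5.84 and 5.45, and brain 7.43 and 6.33 against 6.07 and 5.39. In both tissues replicate 1 was higher than replicate 2 in both reactions, and the groups did not overlap in any of the 5 tissues. The ratios, each ± 0.36, were 2.17 in spleen, 1.27 in liver, 1.15 in brain, 1.11 in bone marrow and 0.66 in duodenum. Spleen pairs were above and duodenum pairs below all others, and the middle 3 overlapped.

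The other tested probe set of Ino80d, 1434841_at, had a mean ratio of 0.02 ± 0.12, between -0.32 in bone marrow and 0.32 in duodenum. The bone marrow value turned to 0.24 without control replicate 1, the array that stood apart. The untested 1437411_at had 0.03 ± 0.09. An antisense transcript at the gene, Ino80dos, has its own probe set, which was too dim to be tested and had a ratio of -0.14 ± 0.10.

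Erg encodes an ETS transcription factor of endothelial cells and blood stem cells. In spleen 1440244_at read 7.15 and 7.35 in the IRP2 reactions against 5.64 and 5.37 in the controls. Liver gave 6.90 and 5.91 against 4.89 and 4.48. Bone marrow gave 6.99 and 6.32 against 6.24 and 5.29. The bone marrow groups were the closest of the 5, with the lower IRP2 array just above the higher control. Brain gave 5.84 and 4.58 against 3.70 and 3.57, and duodenum 5.10 and 4.88 against 3.88 and 3.58. These controls lay below the 10th percentile of tested probe sets, 4.86 in brain and 4.88 in duodenum, so the ratios there rest on dim controls. The mean of the liver controls, 4.68, was also below that percentile in liver, 4.82. With an SE of 0.41 each, the ratios were 1.74 in spleen, 1.72 in liver, 1.58 in brain, 1.26 in duodenum and 0.89 in bone marrow. Neighbouring tissues overlapped down to duodenum, and the bone marrow pairs, 0.75 and 1.03, overlapped those of brain but not of duodenum. Without bone marrow control replicate 1, the array that stood apart, both IRP2 arrays set against control replicate 2 gave 1.37, above the ratio of duodenum. Pair 2 by itself, at 1.03, stayed below both duodenum pairs, 1.21 and 1.31. The place of bone marrow as the lowest tissue thus depends on how that array is left out. Without bone marrow the mean ratio of Erg was 1.58 ± 0.19.

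The second probe set of Erg, 1425370_a_at, whose suffix marks probes shared by splice forms of a gene, had a mean ratio of 0.12 ± 0.13. Its tissue means ran from -0.23 in duodenum to 0.47 in bone marrow.

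Arfip2 encodes arfaptin-2, a membrane-bending protein that binds Arf-family GTPases and Rac1 and acts at the Golgi. In brain 1435498_at read 11.16 and 10.84 in the IRP2 reactions against 8.94 and 8.43 in the controls. Duodenum gave 9.75 and 10.11 against 8.19 and 8.17, and spleen 8.86 and 8.70 against 7.35 and 6.97. The IRP2 arrays of brain were the highest of the 20, and so were its controls among the 10 controls. Liver gave 9.09 and 9.0 against 8.16 and 7.90, and bone marrow 7.67 and 7.62 against 7.43 and 7.19. All 5 tissues separated, bone marrow by the least. Each with an SE of 0.23, the ratios were 2.31 in brain, 1.75 in duodenum, 1.62 in spleen, 1.01 in liver and 0.33 in bone marrow. Duodenum and spleen overlapped, and every other step in this order separated the pairs. Its second probe set, 1424240_at, had a mean ratio of 0.01 ± 0.09 and tissue means from -0.28 in liver to 0.24 in spleen; that of bone marrow, 0.03, was 0.30 without control replicate 1.

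Dhx32 encodes a member of the DEAH-box family of RNA helicases. Its called probe set, 1438013_x_at, carries the suffix Affymetrix gives to sets in which some probes also match other sequences, so its signal may not be from Dhx32 alone. In duodenum it read 8.40 and 9.71 in the IRP2 reactions against 6.99 and 7.02 in the controls. Bone marrow gave 6.84 and 6.30 against 5.80 and 5.92, and liver 7.16 and 7.58 against 6.78 and 6.89. The IRP2 replicates of duodenum differed from each other by more than the ratio in any other tissue. Spleen gave 6.2 and 6.59 against 6.07 and 5.92, and brain 6.97 and 6.27 against 6.55 and 5.81. Brain overlapped between reactions, since IRP2 replicate 2 was below control replicate 1. The ratios, each ± 0.37, were 2.04 in duodenum, 0.71 in bone marrow, 0.54 in liver, 0.44 in brain and 0.40 in spleen. Only the duodenum pairs, 1.40 and 2.69, stood clear of the rest, and the other 4 tissues overlapped.

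The calls of Dhx32 and B3galt5 in the mean over tissues were less stable than the other 4. With 1 array left out at a time that of Dhx32 remained in 3 of 20 fits, those without duodenum IRP2 replicate 1, brain control replicate 1 or brain IRP2 replicate 2, and over the 20 fits its mean ratio ran from 0.69 to 0.96. The call of B3galt5 remained in 5 of 20 fits, those without duodenum control 1, liver IRP2 1, bone marrow IRP2 1, bone marrow control 2 or brain control 1. For Ralgapa1, Ino80d, Erg and Arfip2 it remained in 20 of 20. Without the bone marrow arrays the calls of Dhx32 (0.86 ± 0.19) and B3galt5 (0.52 ± 0.11) were lost and 4 remained. Median centring ended the call of B3galt5 and not that of Dhx32, and dropping the filter did the reverse.

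The second probe set of Dhx32, 1420427_a_at, had a mean ratio of 0.14 ± 0.12, and 0.25 in duodenum. In RefSeq the gene overlaps Bccip and Fank1. Their tested probe sets had mean ratios of -0.07 ± 0.11 for Bccip and of -0.03, 0.08 and 0.01 for Fank1.

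Start windows of the 6 genes were searched for the letters of an IRE because Dhx32 held a match. A window is the 250 bases before and 50 bases after an annotated start in RefSeq, build GRCm38.p6, and the genes had 12 windows: 3 each for Erg, Dhx32 and B3galt5, 2 for Ralgapa1, 1 for Arfip2 and none for Ino80d. The loop letters CAGTGN stood on the transcribed strand in 3 of the 12, beside 34.6% of 32851 windows of all genes, and on the opposite strand in 3, beside 33.5%. The longer pattern of a C, any 5 letters and CAGTGN stood on the transcribed strand in 1 of 12, beside 10.4%, and on the opposite strand in 0, also beside 10.4%. It contains the loop letters, and neither pattern occurred within the first 50 transcribed bases of any of the 12.

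The 1 match of the longer pattern spans a start of Dhx32. In the genomic sequence the 5 letters after the loop are complementary to the 5 before it, as in the upper stem of an IRE. The match, with its 17 letters in capitals, is shown as the 1 stretch among these windows with the letters of that loop and upper stem. The stem below these letters was not searched.

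Dhx32, chr7:133782769-133782798, minus strand, GRCm38.p6: gtttccCTGGCCCAGTGAGGCCAaggacaa

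Its first capital lies 7 bases before the annotated start, which falls within the loop letters. An RNA that begins at this start would lack the 5 letters before the loop, and so could not form that stem. This 17-letter form was written down after the match had been seen, and it stood on the transcribed strand of 2 of the 32851 windows (0.00609%) and on the opposite strand of 3 (0.00913%), with no window holding it on both. None of 6 windows of genes whose mRNAs carry known IREs held it. A window ends 50 bases after a start, so an IRE further in or in the trailing untranslated region could not be found. Nothing is read from that absence. A match of letters is a description, and the sources used here do not say whether 1438013_x_at reads a transcript that holds all of it.

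B3galt5 encodes a galactosyltransferase that builds type 1 carbohydrate chains on glycolipids and glycoproteins. In liver 1459801_at read 5.70 and 6.09 in the IRP2 reactions against 5.21 and 4.95 in the controls. Spleen gave 4.85 and 5.02 against 4.2 and 4.51, and duodenum 5.48 and 5.4 against 5.15 and 4.71. The liver IRP2 arrays were the highest of the 20 and the spleen controls the lowest. Bone marrow gave 5.12 and 5.45 against 4.74 and 4.85, and brain 5.23 and 5.33 against 5.27 and 4.96. Brain overlapped between reactions, and brain pair 1 was the 1 pair of 10 with a ratio below 0, at -0.04. Each ± 0.23, the ratios were 0.82 in liver, 0.58 in spleen, 0.51 in duodenum, 0.48 in bone marrow and 0.17 in brain, and the first 4 overlapped. The other tested probe sets, 1428397_at and 1428398_at, had mean ratios of 0.06 ± 0.20 and 0.04 ± 0.09, and in 8 of 10 pairs 1459801_at had the highest ratio of the 3. For the other 5 genes the called probe set had the highest ratio of the tested ones in 10 of 10 pairs.

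**Figure D3:**
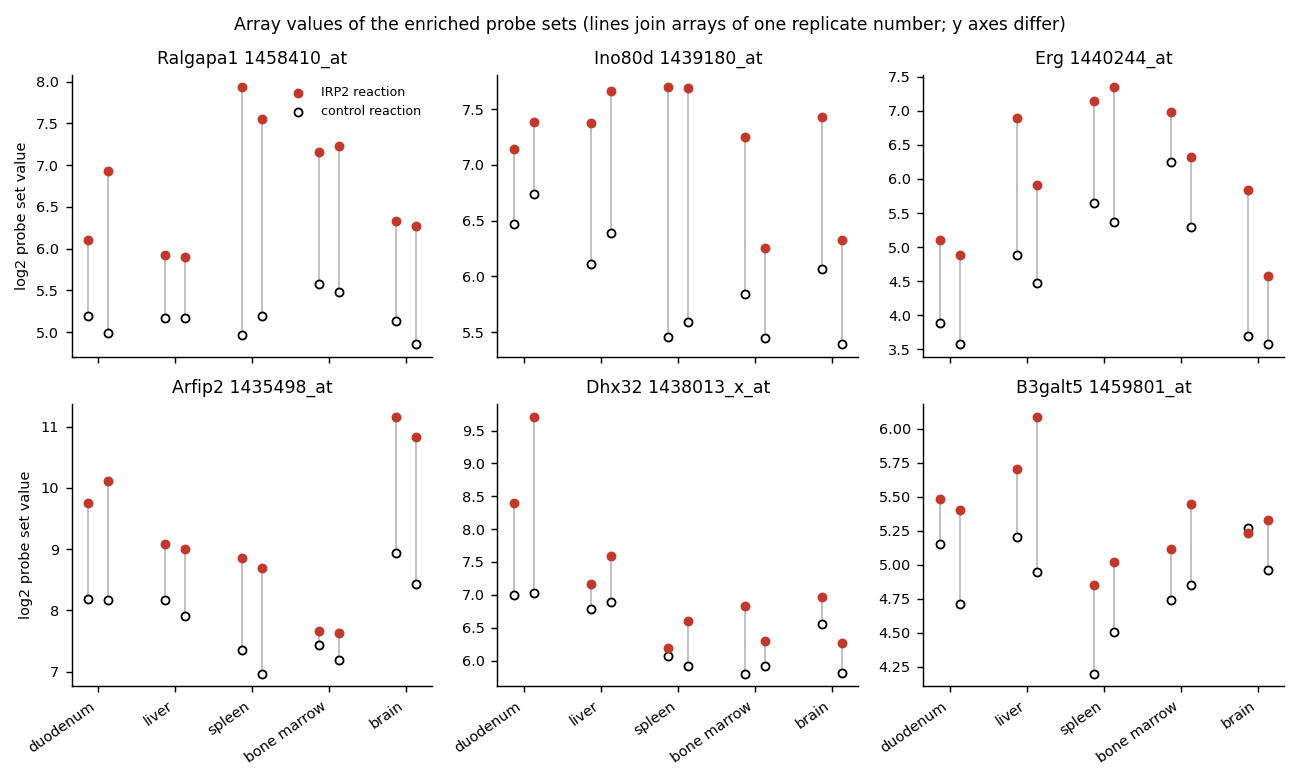
Log2 value (vertical axes, which differ between panels) of the called probe set of each gene on all 20 arrays by tissue, with filled points for IRP2 reactions, open points for controls and lines joining arrays of 1 replicate number. The filled point lies above the open one in 10 of 10 pairs for 5 genes and in 9 of 10 for B3galt5, where brain pair 1 crosses.

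In all 5 tissues together, both IRP2 arrays were above both controls for 4 of the 13 tested probe sets, those of Ralgapa1, Ino80d, Erg and Arfip2, beside 0.229% of all tested probe sets. Calls in single tissues were fewer. In spleen 3 of 13 were called, Ralgapa1, Ino80d and Arfip2, beside 0.063% of all tested. In duodenum Ralgapa1 and Arfip2 were called, 2 of 13 beside 0.073%. Bone marrow had 1 of 13, Ralgapa1, beside 0.00995%, brain 1, Arfip2, beside 0.0597%, and liver 0, beside 0.0332%. These contrasts share the ratios that chose the genes, as does the test that the 5 ratios of a probe set are equal, which called 0 of 13, beside 0.00332%.

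The single-tissue calls rested on few arrays. With each of the 4 spleen arrays left out in turn, Ralgapa1 remained called in 4 of 4 and Ino80d and Arfip2 in 0 of 4, and in brain Arfip2 remained in 4 of 4. In duodenum the calls of Ralgapa1 and Arfip2 remained only without IRP2 replicate 1, where Dhx32 was called too. The bone marrow call of Ralgapa1 remained only without control replicate 2; without control replicate 1, the array that stood apart, the ratio was 1.71 and was not called. With the replicate block, Dhx32 was added in duodenum (3 of 13, beside 0.282%), Erg in spleen (4, beside 0.292%) and Ino80d in bone marrow (2, beside 0.378%). In brain the block added Ralgapa1, Ino80d and Erg (4, beside 0.139%), and in liver it called Ino80d, Erg and Arfip2 (3, beside 0.206%). The ratio of Arfip2 was then called different between tissues, 1 of 13 beside 0.0398%.

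A single called probe set was common among enriched genes in this series. Of 14872 tested genes, 72 had a probe set called higher in the mean over tissues, and 47 of these had 2 or more tested probe sets. In 33 of the 47 (70.2%) exactly 1 was called, and the 6 genes are among these 33. The gap between the called probe set and the next highest of its gene was 1.40 for Arfip2, 1.32 for Ralgapa1, 1.32 for Erg, 1.25 for Ino80d, 0.69 for Dhx32 and 0.45 for B3galt5. Over the other 27 genes the median gap was 0.76, and the 33 ranged from 0.02 to 1.55. The largest was that of Kcnf1, a potassium channel subunit named after its value was seen. The iron exporter gene Slc40a1 (1.16), the iron importer gene Slc11a2 (0.82) and the hypoxia factor gene Epas1 (0.31), whose mRNAs carry known IREs, are also among the 33. With the replicate block, 108 of 143 such genes (75.5%) had exactly 1 called, the 6 genes among them, and the median gap of the other 102 was 0.37. Slc40a1, Slc11a2 and Epas1 then had 2 called probe sets each and were no longer in that class.

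**Figure D4:**
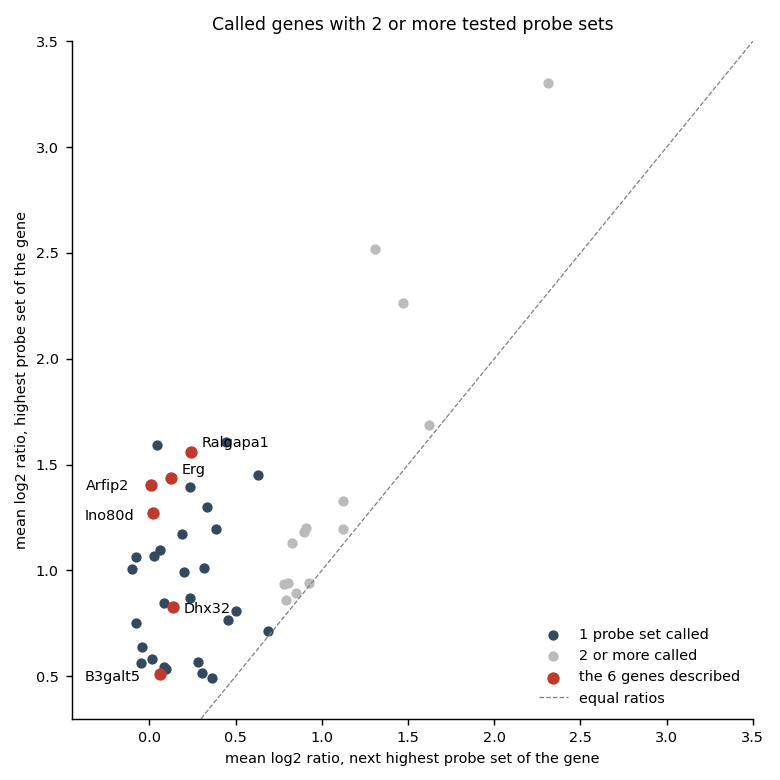
Mean log2 ratio of the highest probe set of a gene (vertical axis) against that of its next highest tested probe set (horizontal axis) for the 47 called genes with 2 or more tested probe sets, in red for the 6 genes, dark blue for other genes with 1 called and grey for genes with 2 or more called. The dashed line marks equal ratios, and the 6 red points have horizontal values between 0.01 and 0.24.

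Families of related genes, listed by function, were read on the brightest probe set of each gene in the mean over tissues. Read this way Ralgapa1, Ino80d, Erg and B3galt5 would not be called, since each has a brighter tested probe set without a call. Counting a call on any tested probe set, ETS factors and DEAH helicases had 1 gene each and the other families 0, beside 72 of 14872 genes. Over all 14872 genes the median ratio was -0.03, with 53 called higher and 2 lower. Of 11 measured genes of Ral GTPase control none was called in either direction, with a median of -0.04 and a range from -0.16 (Ralgps2) to 0.07 (Exoc8). Ralgapb, the partner subunit of Ralgapa1, was at -0.14 ± 0.09. Of 14 INO80 complex genes none was called, with a median of -0.03; Ino80b was at 0.30 ± 0.12, the helicase gene Ruvbl2 at 0.27 ± 0.11 and Ino80e at -0.14 ± 0.12. The INO80 genes spread more widely than those of Ral GTPase control.

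Of 22 measured ETS factors none was called on the brightest probe set, with a median of -0.03 and a lowest value of -0.29 for Etv3. Elf2 was the exception on another probe set: 1 of its 3 was called, at 1.19, while the brightest was at 0.38 ± 0.19. Of 12 genes of the Arf and arfaptin group none was called, with a median of -0.06, Arf5 highest at 0.11 and Ica1l lowest at -0.20. Of 15 DEAH helicases 1 was called higher and none lower, and the median was 0.00. That gene was Dhx9, a nuclear RNA and DNA helicase, at 1.12 ± 0.17, and both of its tested probe sets were called, the other at 1.19. Of 14 measured genes of the beta-1,3-galactosyltransferase family none was called, with a median of -0.05, B3gnt3 at 0.09 and B3gnt5 at -0.20. For comparison, 4 of 6 measured mRNAs with known IREs were called higher, with a median of 1.14. With the replicate block the counts of these 6 families were the same, that of the IRE mRNAs was 6 of 6, and all genes gave 134 higher and 19 lower.

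Likeness was measured as the root mean square difference in log2 ratio over the 10 pairs, which depends on the size of a ratio as well as on its tissue order. The 3 genes nearest to Erg were Fam98b (0.297), Cct7 (0.299) and Slc40a1 (0.409). Nearest to Arfip2 were Lrpap1 (0.397), Hmces (0.456) and Shisa2 (0.522), and nearest to Ino80d were Madd (0.496), Erg (0.545) and Lrpap1 (0.563). Ralgapa1 was nearest to Lrpap1 (0.592), Ino80d (0.633) and Elf2 (0.691), all at larger distances. B3galt5 was nearest to Mcmbp (0.223), Il6ra (0.247) and Akip1 (0.274), where all ratios are small. The neighbours of Dhx32 were at distances near those of Ralgapa1: Cald1 (0.600), Tmed11 (0.639) and Mpv17l2 (0.648).

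The level in the control reactions was not used to choose the genes. It is the RNA carried through the pulldown without IRP2, not the level in the tissue, and in bulk RNA fewer cells of a type cannot be told apart from less RNA per cell. By limma's moderated F test over the 5 control groups of 2 arrays, 10 of the 13 tested probe sets differed between tissues, beside 82.4% of all tested probe sets, a share near the background. The count was 6 without spleen control replicate 1 and 6 without spleen control replicate 2, and 7 to 10 without any other control array. Levels of different probe sets depend on their probes and are not set against each other. Levels are as deposited, while array medians were 5.39 on both spleen controls and 5.66 to 5.71 on duodenum and liver controls. With median centring the calls of Ino80d 1439180_at, Dhx32 1438013_x_at and B3galt5 1459801_at were lost (adjusted p = 0.121, 0.0828 and 0.166 by the F test). The other calls remained.

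Of the tested probe sets of Ralgapa1, 1428594_at was called different between tissues in control level and 1458410_at was not. Their patterns were not tested against each other. Control levels of Ralgapa1 1428594_at were 7.79 in brain, 6.75 in spleen, 6.36 in duodenum, 6.17 in bone marrow and 5.50 in liver (adjusted p = 2.63e-06 by limma's F test), and this call held under 17 of 17 alternatives. Duodenum and bone marrow overlapped, and all other neighbours were separate. For 1458410_at the levels were 5.53 in bone marrow and 4.99 to 5.17 in the other tissues, with no call (adjusted p = 0.273 by the same test) and none under 17 alternatives. These levels were dim, from percentile 12.5 of tested probe sets in brain to 26.6 in bone marrow, and 1 control array reached its median. A flat pattern cannot be told apart from dim signal there. Neither the control level nor the ratio of 1458410_at was thus called different between tissues.

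For Ino80d the control level of 1439180_at was 6.60 in duodenum, 6.25 in liver, 5.73 in brain, 5.64 in bone marrow and 5.53 in spleen (adjusted p = 0.0488 by limma's F test). The last 3 overlapped, and the call remained under only 6 of 17 alternatives, which gave adjusted p from 0.000322 to 0.182. By contrast 1434841_at was highest in spleen, at 8.85, and 7.67 to 8.04 in the other tissues, which overlapped (adjusted p = 0.00669). That call remained under 15 of 17 alternatives, up to 0.0613.

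For Erg, 1440244_at was at 5.77 in bone marrow and 5.51 in spleen, which overlapped, then 4.68 in liver, 3.73 in duodenum and 3.63 in brain (adjusted p = 0.000417 by limma's F test), and the call held in 16 of 16 alternatives. Without bone marrow control replicate 1 bone marrow was at 5.29, below spleen. The values of the last 3 tissues were below the 10th percentile of tested probe sets there. In contrast 1425370_a_at was highest in duodenum (6.29) and liver (6.27) and lower in bone marrow (5.62), spleen (5.31) and brain (5.31), with adjusted p = 0.00984 and a call in 17 of 17. Spleen and bone marrow also had the highest erythroid markers: 3 of 4 measured were highest in bone marrow and 1 in spleen, with medians of 10.23 and 9.89 there and 4.18 to 4.79 elsewhere. The 6 endothelial markers were spread, highest in liver and spleen for 2 each and in duodenum and bone marrow for 1 each, with medians from 5.19 in bone marrow to 7.12 in spleen. The part of these cells in the level of Erg was not tested.

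Arfip2 1435498_at was at 8.69 in brain, 8.18 in duodenum, 8.03 in liver, 7.31 in bone marrow and 7.16 in spleen (adjusted p = 0.000101 by limma's F test), with a call in 17 of 17 alternatives and overlap only between the last 2. Its second probe set, 1424240_at, was at 7.60 to 7.69 in duodenum, liver and brain and at 7.25 and 7.18 in spleen and bone marrow, with no call (adjusted p = 0.0773) and a call in 3 of 17. In both probe sets spleen and bone marrow were the lowest tissues.

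Both probe sets of Dhx32 had the order duodenum, liver, brain, spleen, bone marrow. The levels of 1420427_a_at were 6.67, 6.47, 6.02, 5.51 and 5.27 in that order, with no overlap between neighbours (adjusted p = 0.000918 by limma's F test) and a call in 17 of 17 alternatives. Those of 1438013_x_at were 7.01, 6.84, 6.18, 6.0 and 5.86 (adjusted p = 0.0307), with brain and spleen overlapping and a call in only 6 of 17, over a range of 0.0143 to 0.0828. Pancreas acinar and duodenal epithelium markers were highest in duodenum as well, and their part in this order was not tested.

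B3galt5 1428397_at was at 7.11 in brain, 6.47 in duodenum, 5.52 in liver, 5.36 in bone marrow and 4.58 in spleen (adjusted p = 0.000788 by limma's F test), with a call in 17 of 17 alternatives. The duodenum arrays were far apart, at 5.69 and 7.25, and overlapped brain. The levels of 1428398_at stayed between 6.21 and 6.42 with no call (adjusted p = 0.712), and none in 17. The levels of 1459801_at were 5.12 in brain, 5.08 in liver, 4.93 in duodenum, 4.80 in bone marrow and 4.36 in spleen (adjusted p = 0.0347), where only spleen was separate from its neighbour, and 9 of 16 alternatives called it. Spleen was the lowest tissue in all 3 probe sets as deposited, for 1428398_at by less than the spread of its arrays. The spleen controls also had the lowest array medians, and for 1428398_at its rank cannot be told apart from these.

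**Figure D5:**
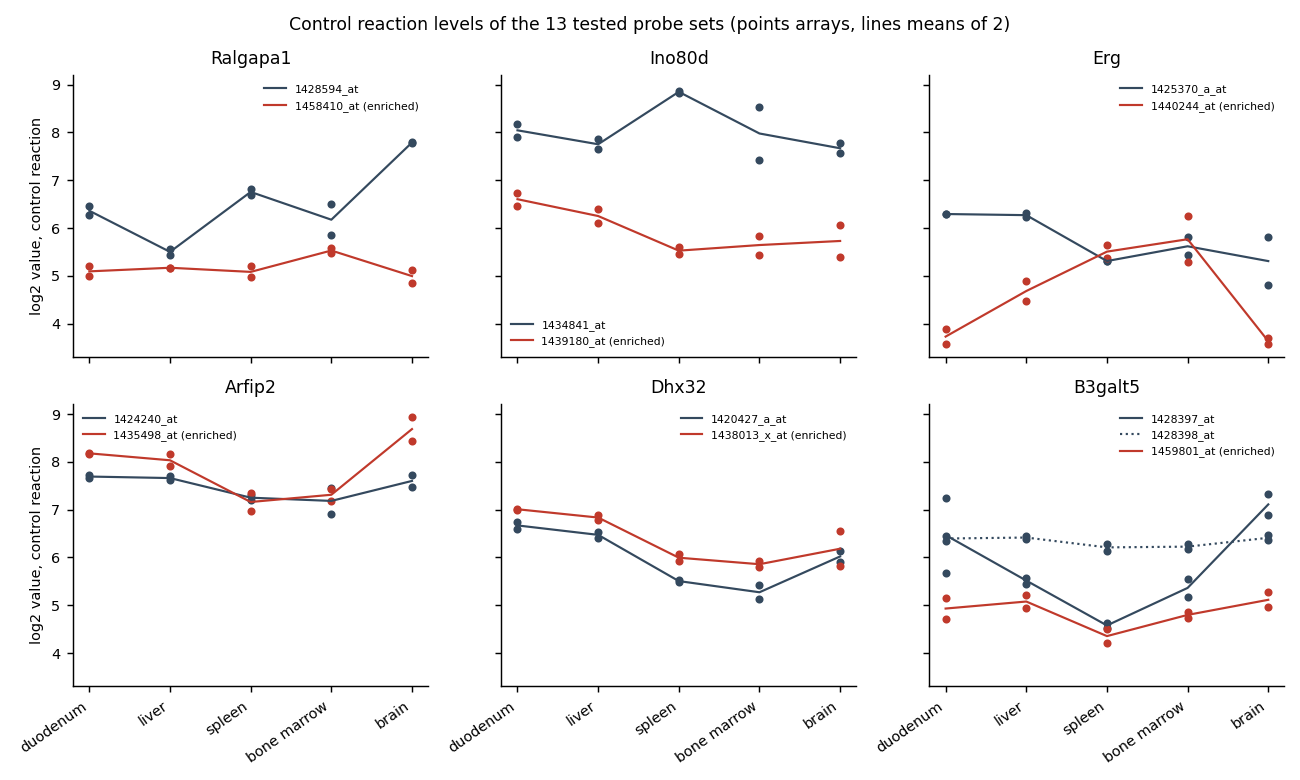
Log2 value in the control reactions (vertical axis) by tissue for the 13 tested probe sets, 1 panel per gene, with points for arrays, lines through the means of 2 arrays, and red for the probe set called higher with IRP2. In Erg the red line peaks in bone marrow at 5.77 (5.29 without control replicate 1) while the dark one is highest in duodenum at 6.29, and in Dhx32 both lines rank the tissues in the same order.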

How the data were processed

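Each deposited value is the log2 signal of a probe set, made by the authors with RMA, or with MAS5 (GCOS) and then quantile normalization, per the series' design text and the submitters' processing notes. Which of these gave each column, and their versions, are not given in the sources used here. Probe sets were named by the platform annotation, and 64 Affymetrix controls were left out. Probe sets at or above the median of their array on at least 2 of 20 arrays were tested, 30153 of 45101 (66.9%).

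A linear model (limma 3.58.1, R 4.3.3, lmFit and eBayes) had a mean for each of 10 groups and p-values adjusted by Benjamini-Hochberg over all tested probe sets, with a call under 0.05. Residual degrees of freedom were 10 and the prior 5.34. Means and SEs of untested probe sets come from the fit without the filter. Each array is 1 measurement per probe set, so precision rests on 2 arrays per group. The fits were tested on simulated data.

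Arrays with the same replicate number deviated together from their group means, with correlations over probe sets of 0.251 (bone marrow), 0.385 (spleen), 0.565 (liver), 0.676 (duodenum) and 0.923 (brain). On this basis, which comes from the data and not the labels, same-numbered arrays were taken as pairs, and another fit had tissue and replicate number as a block. In brain the array medians were 5.67 and 5.66 for replicate 1 and 5.41 on both arrays of replicate 2. The brain correlation cannot be told apart from this shift.

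The members and gene lists were chosen with earlier results of these data known. Named genes are the 6 genes with every probe set, the 3 genes nearest to each called probe set, and up to 4 genes of each family with the highest and lowest ratios. A gene's called probe set is the one with the highest mean ratio. Alternatives were the block, median centring, quantile normalization, no filter, a filter on 10 arrays, fewer tissues and leaving out each array.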

Additional observations from a re-analysis of the deposited data

Results flagged for a closer look

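With tissue and replicate number as a block, the ratio of Arfip2 1435498_at differed between the 5 tissues (adjusted p = 0.0328 by limma's moderated F test), from 0.33 in bone marrow to 2.31 in brain. It was the 1 member called, beside 0.0398% of all tested probe sets. Without the block no member was called, beside 0.00332%. The gene was chosen with its tissue ratios known, and diet and age cannot be told apart from tissue between duodenum, liver and spleen and the other tissues.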

How the results depend on the processing

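No ratio of the 6 called probe sets changed direction in the alternatives run; the other 7 tested were not followed through them all. Counts below are of the 13 tested probe sets of the 6 genes. With the replicate block the calls were 3 in liver, 2 in bone marrow, 4 in brain and 1 for a ratio that differed between tissues. Median centring and the fit without the filter both left 0 calls in bone marrow, and quantile normalization gave 2 in brain. With single arrays left out, calls ranged from 0 to 3 in duodenum, 0 to 1 in bone marrow, 4 to 6 in the mean over tissues and 6 to 10 for the control level, and were 1 in spleen each time. In the mean over tissues there were 5 with median centring and 6 with quantile normalization. There were 4 each with the filter on 10 arrays and without bone marrow. The filter on 10 arrays left Erg 1440244_at (9 arrays) and B3galt5 1459801_at (2 arrays) untested, so these were removed there and not tested without a call. For the control level, the replicate number as a random block (correlation 0.635) gave 8 calls and lost those of Dhx32 1438013_x_at and B3galt5 1459801_at. The causes were not tested. Probe sets near background limit what a ratio can show, above all Erg 1440244_at in brain, duodenum and liver, B3galt5 1459801_at and the dim probe sets of Ralgapa1.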
